A study of Mus musculus with 14 samples.

Results

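In all, 10 core cell cycle genes were followed across all 7 groups of this mouse study: the D-type cyclins Ccnd1, Ccnd2 and Ccnd3, the E-type cyclins Ccne1 and Ccne2, Ccna2, Ccnb1, the kinase Cdk1, and the Cdk inhibitors Cdkn1b and Cdkn2a. They were taken by symbol, 10 of the 24345 genes of the RNA-seq tables and of the 24394 of the RNA immunoprecipitation (RIP) tables, and all 10 were found in both. Each had 1 locus, and all 10 passed the filter on low values in every comparison. The RNA-seq groups were mESC, untreated wild-type embryonic stem cells of a home-made line; MEF, untreated primary embryonic fibroblasts, also wild type; KD_control, stem cells labelled wild type that serve as knockdown control; and Dppa5a_KD, stem cells in which Dppa5a was knocked down. Stem cells had been kept on fibroblast feeders with LIF and were moved to gelatin before harvest. RIP used stem cells that all overexpress 3Flag-Dppa5a: untreated with IgG (IgG_RIP), untreated with a Flag antibody (Flag_RIP), and treated with HU, an abbreviation the labels do not spell out, with the same Flag antibody (HU_Flag_RIP). Each group had 2 libraries. Dppa5a is an RNA-binding protein of pluripotent cells, and the study asked how RNA differs among the cell types and with the knockdown, and which RNAs Dppa5a binds. The sources used here do not say how the knockdown was made, whether a line is 1 clone, or whether the 2 libraries of a group came from separate cultures. The p-values therefore cover the spread between libraries alone, and that spread may be technical.

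Cyclins are the regulatory subunits of cyclin-dependent kinases (Cdks). D-type cyclins with Cdk4 or Cdk6 begin the phosphorylation of the retinoblastoma protein in G1, E-type cyclins with Cdk2 carry cells into S phase, and cyclins A and B with Cdk1 drive late S phase, G2 and mitosis. Cdkn1b encodes p27, which binds and inhibits cyclin-Cdk complexes, and Cdkn2a encodes both p16Ink4a, an inhibitor of Cdk4 and Cdk6, and p19Arf, which stabilizes p53. Mouse embryonic stem cells are known for a short G1 phase with high cyclin E activity and little control by D-type cyclins.

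The authors gave RNA-seq levels as FPKM, fragments per kilobase of transcript scaled to library depth, which allow genes of different length to be set beside each other within a library. Read as 2 SD, the width of the deposited bounds is that of 18330000 to 25330000 independent fragments in a library. For the 62 member values of at least 10 FPKM, the bounds lay 1.41% to 14.3% on either side of the value, and for the 18 lower values 5.51% to 113%. RIP tables held about 3472020 to 13033900 counts per library, of which the ribosomal RNA precursor Rn45s took 39.3% to 73.2%. Dppa5a was at 5126 and 5417 FPKM in KD_control and at 101 and 358 in Dppa5a_KD, in the direction the labels give, with unequal remainders in the knockdown libraries. The 6 pluripotency markers summed to 1816 to 2617 FPKM in mESC and 0.568 to 0.961 in MEF, and the 6 fibroblast markers to 4819 to 5743 in MEF and 2.18 to 5.88 in mESC. In KD_control and Dppa5a_KD the fibroblast sums were 16.0 to 16.7 and 6.41 to 6.51, with Postn, a matrix gene of fibroblasts, listed at 0 in all 4 libraries. Macrophage markers summed to 33.6 to 37.7 FPKM in MEF, almost all of it Lyz2 (28.1 and 32.6), while the leukocyte gene Ptprc stood at 0.120 and 0.199; their part in the MEF values was not tested.

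**Figure D1:**
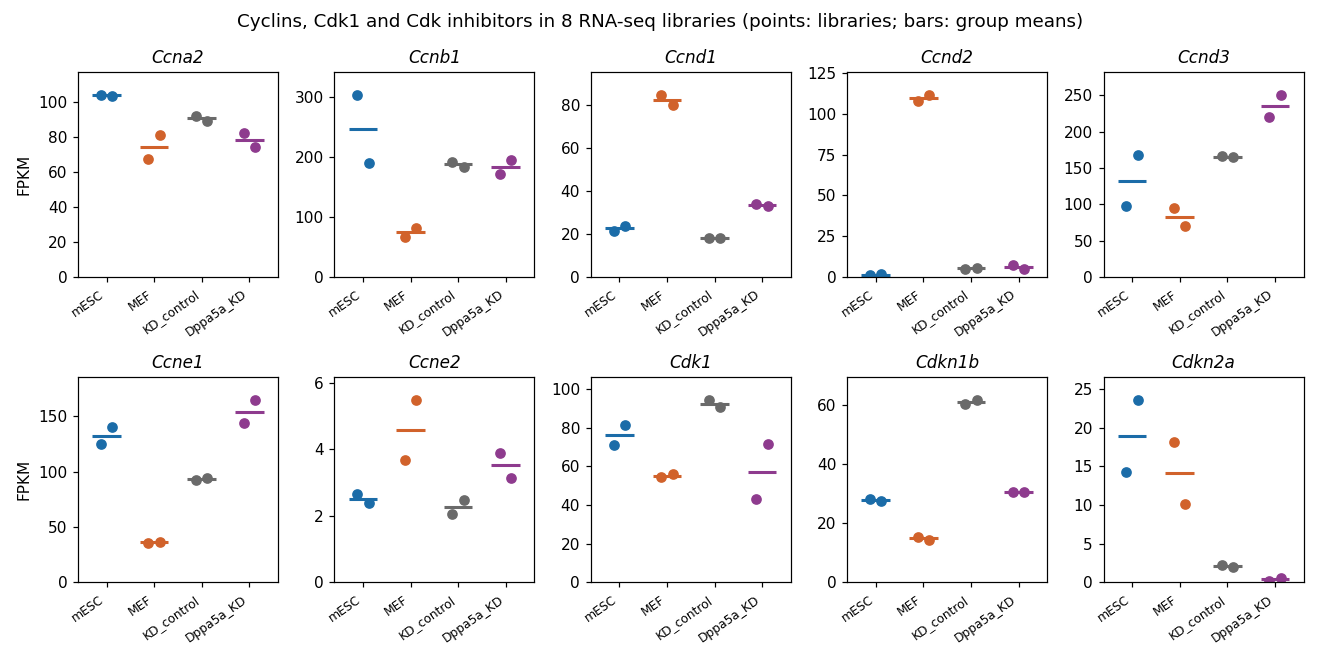
FPKM (vertical axis, linear from 0) of the 10 genes in the 4 RNA-seq groups, with a point for each library and a bar at each group mean. Ccnd1 and Ccnd2 were highest in both MEF libraries, Ccne1 was lowest there, and Cdkn1b was highest in both KD_control libraries.

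Compared with MEF, mESC had more Ccne1, Ccnb1 and Cdkn1b and less Ccnd1 and Ccnd2. These were 5 of the 10 genes, 3 higher and 2 lower, in limma with Benjamini-Hochberg adjusted p-values under 0.05 on the log2(FPKM + 1) scale, against 56.7% of all 12875 genes tested (30.6% higher, 26.1% lower). The median log2 fold change was 0.47 over the 10 genes and 0.15 over all genes tested. The share of called members was therefore near that of all genes. In these bulk samples, fewer cells in a phase that uses a cyclin and less of its RNA per cell cannot be told apart.

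The largest fold change of the 10 was that of Ccnd2, a D-type cyclin. Ccnd2 (mm10, chromosome 6, 127125709 to 127151048) had 1.10 and 2.01 FPKM in mESC against 108 and 112 in MEF. Both fibroblast libraries were far above both stem cell libraries, and the log2 fold change was -5.46 (SE 0.25, limma adjusted p = 9.96e-05). Ccnd1 (chromosome 7, 144929931 to 144939925) was at 21.4 and 23.8 FPKM in mESC against 85.0 and 80.2 in MEF. Its change was -1.82 (SE 0.20, limma adjusted p = 0.00128), again with no overlap. Ccnd3 (chromosome 17, 47505051 to 47599688), the third member of the family, had 97.4 and 168 FPKM in mESC against 95.6 and 69.8 in MEF. The mESC libraries lay far apart, and the difference of 0.64 had a 95% interval from -0.22 to 1.50 (limma adjusted p = 0.163). It was 0.25 without mESC replicate 2 and 1.03 without mESC replicate 1, and 0.42 and 0.87 without MEF replicate 2 and replicate 1. Every alternative kept the calls of Ccnd1 and Ccnd2 in this comparison, including those without any 1 library.

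As shares of the summed D-type cyclin FPKM, which need no scaling between libraries, the groups separated in the same way. Ccnd3 made up 81.2% and 86.7% of the family in mESC, 87.7% and 87.2% in KD_control, and 84.0% and 86.8% in Dppa5a_KD. In MEF it made up 33.2% and 26.7%, with Ccnd2 at 37.4% and 42.7% and Ccnd1 at 29.5% and 30.7%. In the 6 stem cell libraries 1 gene, Ccnd3, thus held most of the family's FPKM, and in fibroblasts none of the 3 held over 42.7%. The family summed to 120 and 194 FPKM for mESC, 288 and 262 for MEF, 190 and 189 for KD_control, and 261 and 289 for Dppa5a_KD. The sums in MEF and in the knockdown overlapped, with different genes behind them. No test was made on the shares.

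**Figure D2:**
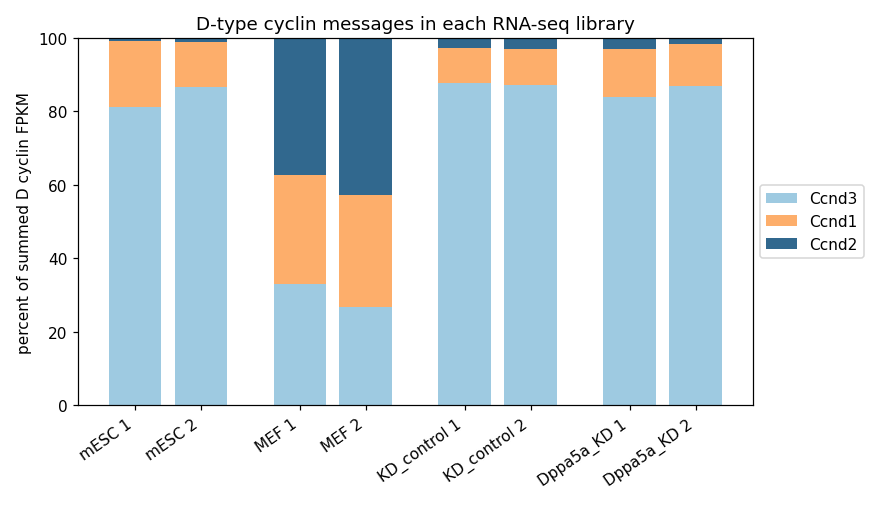
Share (percent, vertical axis) of Ccnd3, Ccnd1 and Ccnd2 in their summed FPKM, with a stacked bar for each of the 8 RNA-seq libraries. Ccnd3 took at least 81.2% in every stem cell library and 33.2% and 26.7% in the fibroblast libraries.

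Knockdown of Dppa5a went with more message of 3 G1 cyclins, Ccnd1, Ccnd3 and Ccne1, and less of the Cdk inhibitor Cdkn1b. With Cdkn2a, 5 of the 10 genes were called, 3 higher and 2 lower, against 37.4% of all 12345 genes tested (13.6% higher, 23.8% lower). Cdkn2a passed the filter of 1 FPKM only through KD_control, where it was higher, so its place in this count was favoured by the filter. The median log2 fold change was 0.07 over the 10 genes and -0.11 over all genes tested. With FPKM rescaled to a common sum the median of all genes was 0.02, and the same 5 members were called.

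Ccnd1 was at 18.0 and 18.4 FPKM in KD_control and at 34.1 and 33.0 in Dppa5a_KD. The knockdown libraries lay close together and well above the control, with a log2 fold change of 0.84 (SE 0.09, limma adjusted p = 0.00712) that kept its call in every alternative. Ccnd3 was at 166 and 165 FPKM in KD_control and at 220 and 251 in Dppa5a_KD, a change of 0.50 (SE 0.14, limma adjusted p = 0.0486). That call was close to the threshold. It ended in 7 of 12 alternatives, among them the replicate block (adjusted p = 0.121) and the fits without KD_control replicate 1 (0.509) or replicate 2 (0.527). Ccnd2 was at 5.25 and 5.63 FPKM in KD_control and at 7.71 and 5.18 in Dppa5a_KD. Its libraries overlapped and the difference of 0.19 had a 95% interval from -0.31 to 0.68. Without Dppa5a_KD replicate 1 it was -0.06 and without replicate 2 it was 0.43.

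The levels of Ccnd2 also differed between the 2 sources of stem cells without the knockdown. It was higher in KD_control than in mESC by 1.36 (SE 0.22, limma adjusted p = 0.016), although both lay far below MEF (KD_control against MEF -4.10, SE 0.09, limma adjusted p = 9.41e-06). The fibroblast marker sum was also higher in KD_control, 16.0 to 16.7 against 2.18 to 5.88 FPKM, of which Thy1 and Pdgfrb, the 2 of 6 markers above 1 FPKM there, made up nearly all. The collagen gene Col1a2 was at 0.0819 and 0.129 FPKM in KD_control and at 1562 and 1308 in MEF. The part of such cells in the Ccnd2 level was not tested. The order of levels was MEF, Dppa5a_KD, KD_control and mESC for Ccnd2, with Dppa5a_KD and KD_control overlapping. For Ccnd1 it was MEF, Dppa5a_KD, mESC and KD_control, with no overlap between neighbours. For Ccnd3 it was Dppa5a_KD, KD_control, mESC and MEF, with KD_control and mESC overlapping.

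**Figure D3:**
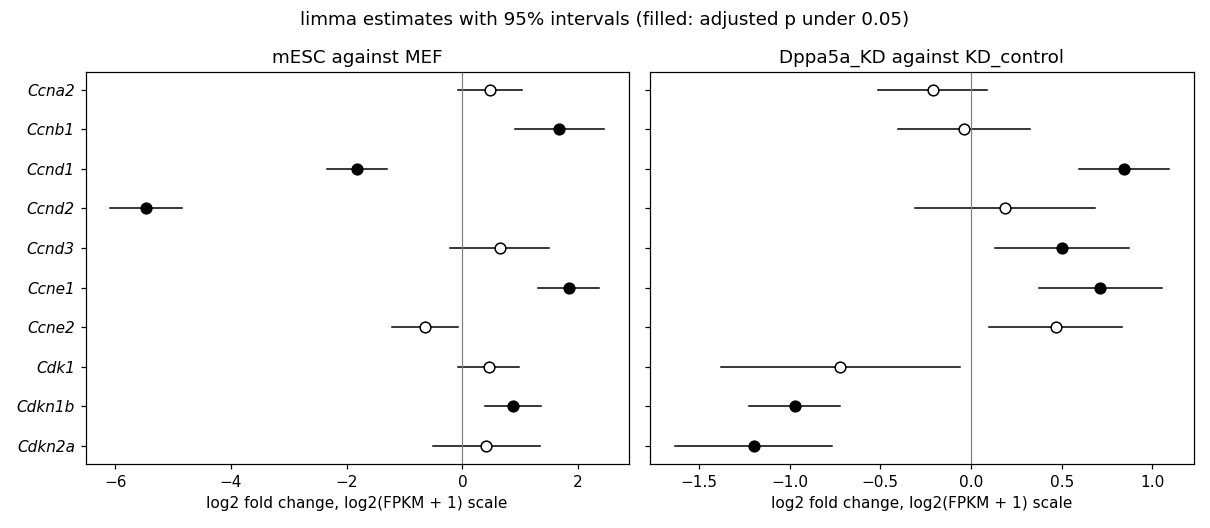
Difference in log2(FPKM + 1) (horizontal axis; the panels have different ranges) and its 95% limma interval for mESC against MEF and for Dppa5a_KD against KD_control. Filled points passed an adjusted p of 0.05. Ccnd2 lies farthest from 0 in the first panel (-5.46) and Cdkn2a in the second (-1.20). Cdkn2a entered the second test through KD_control alone, which favours a call.

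Ccne1 (chromosome 7, 38097984 to 38107490), the cyclin that activates Cdk2 at the start of S phase, was at 125 and 140 FPKM in mESC against 35.8 and 36.9 in MEF. The log2 fold change was 1.84 (SE 0.21, limma adjusted p = 0.00135), with both stem cell libraries above both fibroblast libraries. It was at 92.9 and 94.1 FPKM in KD_control and at 144 and 165 in Dppa5a_KD, a rise of 0.71 (SE 0.13, limma adjusted p = 0.0167). That call ended without KD_control replicate 1 (0.70, adjusted p = 0.234) or replicate 2 (0.72, adjusted p = 0.221), fits that take the spread from the knockdown libraries alone. KD_control against mESC gave -0.50 (limma adjusted p = 0.0567), a difference that passed in 6 of 12 alternatives. Dppa5a_KD was highest, followed by mESC, KD_control and MEF, with no overlap between neighbours.

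Its paralog Ccne2 (chromosome 4, 11191351 to 11204779) was far less abundant in every library: mESC had 2.64 and 2.38 FPKM, MEF 3.67 and 5.49, KD_control 2.05 and 2.48, and Dppa5a_KD 3.90 and 3.14. Ccne1 made up 97.4% to 98.3% of the summed E-type FPKM in the stem cell libraries and 90.7% and 87.0% in MEF. The difference was -0.65 for mESC against MEF (limma adjusted p = 0.0572) and 0.47 for the knockdown against its control (limma adjusted p = 0.0575), and neither passed. The first passed with median-ratio scaling (-0.79, adjusted p = 0.0349). With the replicate number as a block the knockdown difference of Ccne2 passed (limma adjusted p = 0.0301). It was 0.35 without Dppa5a_KD replicate 1 and 0.59 without replicate 2. KD_control lay below MEF (-0.76, SE 0.19, limma adjusted p = 0.0148), a call lost without KD_control replicate 1 (-0.66, adjusted p = 0.161) or replicate 2 (-0.85, adjusted p = 0.108).

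Of the genes of late S phase, G2 and mitosis, Ccnb1 was called between mESC and MEF, and none of them was called in the knockdown. Ccnb1 (chromosome 13, 100778739 to 100786486), whose protein pairs with Cdk1 at mitotic entry, had 304 and 190 FPKM in mESC against 67.3 and 82.4 in MEF. Both mESC libraries were above both MEF libraries although they differed from each other, and the log2 fold change was 1.67 (SE 0.31, limma adjusted p = 0.00677). Without MEF replicate 1 it was 1.53 (adjusted p = 0.114) and without MEF replicate 2 it was 1.82 (adjusted p = 0.0852). The knockdown libraries, at 172 and 194 FPKM, overlapped with KD_control at 192 and 183. The difference of -0.04 had a 95% interval from -0.40 to 0.33 (limma adjusted p = 0.843), and its sign was kept in 8 of 12 alternatives. It was 0.05 without Dppa5a_KD replicate 1 and -0.13 without replicate 2. Processed copies of Ccnb1 exist in the mouse genome, and the treatment of reads shared with them is not stated, so its values are uncertain.

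Ccna2 (chromosome 3, 36564865 to 36571996), the cyclin of S phase and G2, had 104 and 103 FPKM in mESC, and MEF had 67.6 and 81.1. KD_control had 91.8 and 89.3, and Dppa5a_KD 82.0 and 74.2. The libraries of Dppa5a_KD and MEF overlapped, and the other neighbours in the order did not. The difference was 0.48 between mESC and MEF (95% interval -0.07 to 1.03, limma adjusted p = 0.115) and -0.21 in the knockdown (95% interval -0.51 to 0.09, limma adjusted p = 0.205). The knockdown difference was -0.28 without Dppa5a_KD replicate 1 and -0.14 without replicate 2.

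Cdk1 (chromosome 10, 69336635 to 69352912), the kinase itself, had 71.0 and 81.4 FPKM in mESC against 54.4 and 55.9 in MEF (0.46, 95% interval -0.07 to 0.98, limma adjusted p = 0.116). KD_control, at 94.4 and 90.5 FPKM, was above MEF by 0.73 (SE 0.08, limma adjusted p = 0.000786). In Dppa5a_KD the libraries stood at 43.2 and 71.4 FPKM, both below KD_control but far from each other. The difference of -0.72 (SE 0.25) did not pass (limma adjusted p = 0.0819). Its size depended on the library: -0.37 without replicate 1 and -1.08 without replicate 2. Replicate 1 was also the library with less Dppa5a, 101 against 358 FPKM, and with the lower FPKM sum over all genes, 452677 against 585678. The part of either in the Cdk1 level was not tested. With the replicate block the difference passed (limma adjusted p = 0.00979). It also passed with the 10 most abundant genes left out before scaling (-0.60, limma adjusted p = 0.049).

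Cdk1, Ccnb1 and Cdkn1b are shown here by the 250 bases before their transcription start, a kinase with its mitotic cyclin, and the inhibitor with the smallest adjusted p of the 10 in the knockdown. The sequences are from RefSeq (GRCm38.p6, the assembly also called mm10), which gave such a window for 6 of the 10 genes. Capitals mark matches on either strand to CCAAT (reverse ATTGG), the CCAAT box; TTTGAA (reverse TTCAAA), the cell cycle genes homology region (CHR) core; and TTTNNCGC (reverse GCGNNAAA), an E2F-like site. No base lay in matches of more than 1 motif.
Cdk1 (GRCm38.p6, chr10:69352913-69353162, minus strand): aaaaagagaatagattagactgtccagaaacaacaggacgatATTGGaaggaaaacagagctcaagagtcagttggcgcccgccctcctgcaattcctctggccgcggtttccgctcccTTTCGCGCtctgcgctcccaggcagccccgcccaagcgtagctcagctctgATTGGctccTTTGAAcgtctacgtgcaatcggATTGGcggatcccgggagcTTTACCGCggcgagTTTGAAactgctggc
Ccnb1 (GRCm38.p6, chr13:100786487-100786736, minus strand): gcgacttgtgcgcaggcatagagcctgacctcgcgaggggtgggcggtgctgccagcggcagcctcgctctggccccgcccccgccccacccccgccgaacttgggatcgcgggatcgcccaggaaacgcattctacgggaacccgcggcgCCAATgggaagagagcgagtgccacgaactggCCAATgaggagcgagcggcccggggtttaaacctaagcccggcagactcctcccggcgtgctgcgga
Cdkn1b (GRCm38.p6, chr6:134920151-134920400, plus strand): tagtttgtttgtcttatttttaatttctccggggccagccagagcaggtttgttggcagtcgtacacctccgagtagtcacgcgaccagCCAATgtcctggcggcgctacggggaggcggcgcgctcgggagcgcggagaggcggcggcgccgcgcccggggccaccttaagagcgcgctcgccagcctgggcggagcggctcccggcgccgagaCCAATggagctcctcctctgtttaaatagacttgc
The Cdk1 window held 3 CCAAT, 2 TTTGAA and 2 TTTNNCGC matches, and the Ccnb1 and Cdkn1b windows held 2 CCAAT matches each and no match to the other motifs. Of all 32851 windows in the table, 33.8% held CCAAT, 16.0% TTTGAA and 4.28% TTTNNCGC. The matches describe these letters only, and binding at them was not measured.

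The Cdk inhibitor Cdkn1b (chromosome 6, 134920401 to 134925525) had libraries close to each other in every group. The mESC libraries had 28.2 and 27.7 FPKM and MEF 15.4 and 14.3, while KD_control had 60.5 and 61.7 and Dppa5a_KD 30.7 and 30.6. The order was KD_control, Dppa5a_KD, mESC and MEF, with no overlap between any neighbours. The knockdown libraries stood at about the mESC level, and KD_control stood above all others. In the knockdown it fell by 0.97 on the log2 scale (SE 0.10, limma adjusted p = 0.00627), a call kept in all 12 alternatives. KD_control was above mESC by 1.10 (SE 0.13, limma adjusted p = 0.00965) and above MEF by 1.97 (SE 0.09, limma adjusted p = 4.23e-05). The knockdown comparison and these 2 share the KD_control libraries, so their values are not independent of each other. The excess over mESC was not called without KD_control replicate 1 (1.12, adjusted p = 0.118) or replicate 2 (1.09, adjusted p = 0.132). Between mESC and MEF the difference was 0.87 (SE 0.19, limma adjusted p = 0.0134). It lost its call with the replicate block (adjusted p = 0.0757) and without MEF replicate 1 (0.92, adjusted p = 0.137) or replicate 2 (0.82, adjusted p = 0.164).

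Cdkn2a (chromosome 4, 89274473 to 89294619) has 2 annotated transcription starts in the deposited tables, and the gene-level value does not separate the p16Ink4a and p19Arf messages. The mESC libraries had 14.3 and 23.6 FPKM against 18.1 and 10.2 in MEF. These overlapped, with a difference of 0.41 and a 95% interval from -0.52 to 1.34 (limma adjusted p = 0.38). Without 1 library it went from 0.02 (MEF replicate 2) and 0.07 (mESC replicate 2) to 0.75 (mESC replicate 1) and 0.80 (MEF replicate 1). In KD_control it was at 2.29 and 1.99 FPKM, below mESC (-2.63, SE 0.27, limma adjusted p = 0.00852) and below MEF (-2.22, SE 0.27, limma adjusted p = 0.00115). In Dppa5a_KD it was at 0.193 and 0.563 FPKM, with deposited bounds of 0 to 0.438 and 0.206 to 0.919. The gene entered the knockdown test only through KD_control, since it was under 1 FPKM in Dppa5a_KD, and a gene that enters in this way is favoured to differ. Its estimate of -1.20 (SE 0.17, limma adjusted p = 0.00961) is therefore given as a description, on a scale that understates changes at such levels. It was under the threshold in the 11 alternatives that gave a value. All of these except the fit with no filter on low values keep the filter of 1 FPKM and share this limit. Of the stem cell groups KD_control had the most Cdkn1b but less Cdkn2a than mESC.

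KD_control differed from mESC in 3 of the 10 genes, with Ccnd2 and Cdkn1b higher and Cdkn2a lower. Over all 12595 genes tested the share was 41.4% (26.5% higher, 15.0% lower). Dppa5a was at 5126 and 5417 FPKM in KD_control against 1485 and 1818 in mESC. Of the 6 pluripotency markers, Zfp42 was lower in KD_control, at 34.3 and 36.6 FPKM against 406 and 502. Pou5f1, Nanog and Esrrb were higher in both KD_control libraries than in both mESC libraries, and Sox2 and Utf1 lay within the mESC range. The sum of these markers was 2273 to 2323 FPKM in KD_control and 1816 to 2617 in mESC. KD_control differed from MEF in 9 of 10, with 5 higher and 4 lower, against 80.9% of 13365 (48.4% higher, 32.5% lower). Ccnb1 (1.32, SE 0.12), Ccnd3, Ccne1 (1.34, SE 0.08), Cdk1 and Cdkn1b were the higher ones, and Ccnd1 (-2.12, SE 0.08), Ccnd2, Ccne2 and Cdkn2a the lower ones. Ccna2 was the one not called (0.29, limma adjusted p = 0.0696). Ccnd3 was higher in KD_control than in MEF (1.01, SE 0.16, limma adjusted p = 0.00343), a call lost without KD_control replicate 1 (1.00, adjusted p = 0.0738) or replicate 2 (1.02, adjusted p = 0.0727). Both comparisons reuse libraries of the 2 comparisons above. The labels do not tie mESC or MEF libraries to KD_control.

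Other cell cycle genes were read from 6 lists that hold 65 genes. In mESC against MEF 29 of 63 tested were higher and 5 lower, with a median of 0.64, beside 30.6% higher and 26.1% lower over all genes. The share of higher genes among other cyclins and Cdks lay near that of all genes. Those of the Rb and E2F family and of Cdk1 activity control were above it. In each of these lists the share of lower genes was below that of all genes. Genes of cyclin and inhibitor degradation were higher in 10 of 11, with none lower. They included Fbxo5, an inhibitor of the anaphase-promoting complex, at 63.9 ± 12.7 FPKM (SD, n = 2) against 18.0 ± 2.45 (1.76, SE 0.24), and Fbxw7, the substrate receptor that directs cyclin E to degradation, at 8.68 ± 0.249 against 3.64 ± 0.517 (1.06, SE 0.20). Of the other Cdk inhibitors 4 of 6 were lower in mESC and none higher (median -2.57). Cdkn2b, the p15 neighbour of Cdkn2a, was at 1.26 ± 1.05 against 30.6 ± 6.27 FPKM, and Cdkn1a, which encodes p21, at 33.2 ± 5.72 against 117 ± 7.36. Cdkn1c was lower as well (-3.47), and Cdkn2c (-3.36), the remaining one, entered the test through MEF alone (0.508 ± 0.309 against 14.5 ± 3.36 FPKM). Cdkn1b, by contrast, was higher in mESC.

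Among other cyclins and Cdks 3 of 10 tested were higher in mESC and none lower: the cyclins Ccnf (1.61, SE 0.22) and Ccnb2 (1.17, SE 0.21) and the cyclin E partner Cdk2 (1.14, SE 0.21). The list of Cdk1 activity control had 6 higher and 1 lower of 14, with Mybl2, a transcription factor of G2 and mitotic genes, at 139 ± 49.4 FPKM against 8.43 ± 0.392, the phosphatase Cdc25a (1.07, SE 0.23) and the kinase Aurka (0.94, SE 0.21). The Rb and E2F family had 5 higher and none lower of 13, among them E2f4 (1.98, SE 0.22). E2f2, at 7.63 ± 0.344 against 0.618 ± 0.160 FPKM, is in that count but entered the test through mESC alone. The proliferation markers had 5 of 9 higher and none lower, with the helicase subunit Mcm5 at 135 ± 28.1 against 29.6 ± 3.71 FPKM and the topoisomerase Top2a (1.31, SE 0.25). All of these calls are from limma with an adjusted p under 0.05.

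In the knockdown 5 of 64 tested list genes were higher and 13 lower, with a median of -0.06, beside 13.6% higher and 23.8% lower over all genes. Both list shares were below those of all genes. The other Cdk inhibitors had 4 lower and 1 higher of 6, where Cdkn2b, at 1.67 ± 0.256 in KD_control and 0.486 ± 0.286 FPKM in Dppa5a_KD, entered the test through KD_control alone. Cdkn1a fell from 63.5 ± 2.33 to 39.4 ± 3.65 FPKM (-0.68, SE 0.12), Cdkn2c from 3.82 ± 1.12 to 1.30 ± 0.108, and Cdkn2d by 1.01 on the log2 scale (SE 0.27). Cdkn1c rose from 5.68 ± 0.525 to 8.86 ± 1.10 FPKM. None of the 9 proliferation markers was called in either direction (median 0.19). The Rb and E2F family had 2 higher, E2f2 (1.20, SE 0.13) and E2f3 (0.90, SE 0.12), and 5 lower of 13, among them E2f1 at 41.9 ± 0.517 against 63.9 ± 0.930 FPKM and the Rb relative Rbl2 at 1.38 ± 0.0735 against 3.07 ± 0.0288.

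Ccng2, a cyclin G gene known from growth arrest, fell from 50.8 ± 0.0241 to 20.4 ± 3.24 FPKM (-1.28, SE 0.14), and Ccna1, the germ cell cyclin A, was called lower at 0.360 ± 0.199 against 3.78 ± 0.232 but entered the test through KD_control alone. The other 9 of 11 tested in their list were not called. In cyclin and inhibitor degradation, the scaffold Cul1 rose from 13.0 ± 0.216 to 31.7 ± 6.96 FPKM (1.21, SE 0.17) and Cdc27, a subunit of the anaphase-promoting complex, rose by 0.71 (SE 0.11). In Cdk1 activity control, the Cdk1-inhibiting kinase Pkmyt1 (-0.89, SE 0.16) and the mitotic kinase Aurkb (-0.79, SE 0.16) fell, and the other 12 of 14 were not called. These calls share the KD_control libraries with the comparison of KD_control against mESC, whose values for the same genes are set beside them here. Of the genes lower in the knockdown, KD_control was above mESC for Ccng2 (2.08), Ccna1 (1.83), Cdkn1a (0.92), Cdkn2c (1.67), Cdkn2d (0.76), E2f1 (1.62), Pkmyt1 (2.40) and Aurkb (1.21), all called by limma. Ccna1 (0.348 ± 0.119 FPKM in mESC) and Cdkn2c (0.508 ± 0.309) entered that test through KD_control alone, which favours a call. For Cdkn2b (0.32) and Rbl2 (-0.01) the difference of KD_control from mESC was not called. The remaining genes lower in the knockdown, all of the Rb and E2F family, were not called there either (-0.17 to 0.59). Of the genes higher in the knockdown, KD_control was below mESC for Cul1 (-2.58), Cdc27 (-1.76) and E2f3 (-1.06), and the differences of E2f2 (-0.20) and Cdkn1c (0.89) were not called. Calls in the knockdown are from limma as above. In KD_control against mESC, 10 of 64 list genes were higher and 14 lower, beside 26.5% and 15.0% over all genes.

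By likeness of pattern over the 8 RNA-seq libraries, among 6418 genes whose mean reached 10 FPKM, Ccnd2 ran closest with Slc39a1 (Pearson r = 0.996), Rps6ka4 (0.995) and Itgb5 (0.995). Ccne1 ran closest with Odc1 (0.996), which encodes ornithine decarboxylase, Epb4.1l4a (0.995) and N4bp3 (0.994). For Cdk1 the highest values were lower: 0.961 for Pradc1, 0.958 for Cox7c and 0.954 for Rabggtb. For Cdkn2a they were 0.976 for Tmem150a, 0.969 for the imprinted noncoding RNA Meg3 and 0.956 for AA465934. These are descriptions over 8 libraries in 4 groups, chosen as the highest of all compared, and the points share library and group.

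The RIP libraries were used to ask whether these messages were recovered with Flag-tagged Dppa5a. None of the 10 was called in Flag_RIP against IgG_RIP by edgeR's quasi-likelihood test, against 2.32% of all 10473 genes tested (1.16% higher, 1.16% lower). At an unadjusted edgeR p under 0.05 there were 5 of the 10, against 1607 of all 10473 genes tested. DESeq2 called 0 and also had 5 at that level. The estimates of the 2 inhibitors were the highest. For Cdkn1b the IgG_RIP libraries held 11 and 26 counts, Flag_RIP 90 and 86 and HU_Flag_RIP 42 and 48. As CPM, counts scaled to the effective library size, these were 2.19 and 4.40, 8.75 and 10.7, and 5.58 and 7.88. The libraries of the 3 groups did not overlap. The log2 fold change of Flag_RIP over IgG_RIP was 1.55 (SE 0.52, edgeR adjusted p = 0.132), with a 95% interval from 0.45 to 2.64.

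For Cdkn2a the IgG_RIP libraries held 0 and 2 counts, Flag_RIP 17 and 9 and HU_Flag_RIP 12 and 5. The ratio of summed counts per effective size was 7.77 for Flag_RIP over IgG_RIP, with an exact 95% counting interval from 1.95 to 67.6, and 6.82 (1.62 to 60.9) for HU_Flag_RIP. These intervals cover counting error only, and edgeR did not call either (adjusted p = 0.372 and 0.385). Ccnd2 went the other way, with 33 and 34 counts for IgG_RIP, 7 and 14 for Flag_RIP, and 2 and 25 for HU_Flag_RIP. In CPM these were 6.57 and 5.76, 0.681 and 1.75, and 0.266 and 4.11, so the HU_Flag_RIP libraries lay far apart. The Flag_RIP difference was -2.35 (SE 0.89, edgeR adjusted p = 0.192), and it passed with the replicate block (-2.62, adjusted p = 0.0482).

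**Figure D4:**
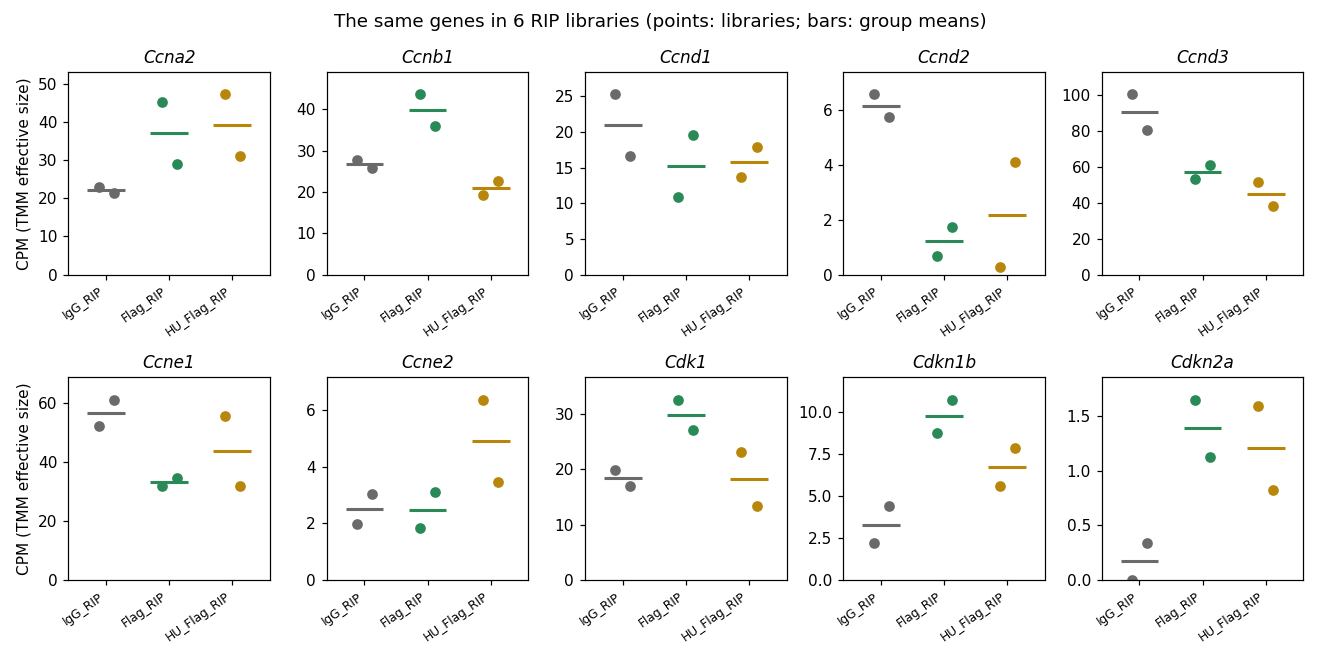
CPM of the effective library size (vertical axis, linear from 0) of the 10 genes in IgG_RIP, Flag_RIP and HU_Flag_RIP, with a point for each library and a bar at each group mean. Cdkn1b lay above IgG_RIP in all 4 Flag libraries and Ccnd3 below it, and edgeR called none of the 10 genes.

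No cyclin passed the test in edgeR, and their estimates lay on both sides of 0. Ccna2 had 23.1 and 21.3 CPM with IgG, 45.2 and 29.1 with Flag and 47.3 and 31.2 with Flag after HU, above IgG in all 4 Flag libraries (0.74, SE 0.33, edgeR adjusted p = 0.284, and 0.82, SE 0.34, edgeR adjusted p = 0.2). Ccnd3 had 100.2 and 80.4 CPM with IgG, 53.1 and 60.9 with Flag and 51.3 and 38.1 with Flag after HU. Its difference was -0.66 (SE 0.29, edgeR adjusted p = 0.258) without HU and -1.01 (SE 0.29, edgeR adjusted p = 0.0633) with HU. Ccne1 had 52.2 and 61.1 CPM with IgG, 31.9 and 34.6 with Flag (-0.77, SE 0.32, edgeR adjusted p = 0.234) and 55.7 and 31.9 with Flag after HU. Ccnd1, Ccne2 and Cdk1 had edgeR adjusted p-values from 0.358 to 0.993 in Flag_RIP and HU_Flag_RIP against IgG_RIP, over differences from -0.46 to 0.96. Ccnb1 differed by 0.57 (edgeR adjusted p = 0.405) and -0.35 (0.63). In HU_Flag_RIP against IgG_RIP none of the 10 was called by edgeR, against 2.86% of all genes (1.44% higher, 1.42% lower). At an unadjusted edgeR p under 0.05 there were 2 of the 10, against 1788 of all 10473 genes tested. DESeq2 called 1, Ccnd3 (DESeq2 adjusted p = 0.025).

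These values rest on the scaling, with TMM factors of 1.45 and 1.60 for IgG_RIP and 0.782 to 0.846 for the Flag libraries. With the library size alone in place of TMM factors the median of all genes moved from 0.02 to -0.87 for Flag_RIP and from 0.04 to -0.88 for HU_Flag_RIP, and 4 and 5 of the 10 genes were called, all lower. Calls over all genes then went from 121 higher and 122 lower to 64 and 2214 for Flag_RIP, and from 151 and 149 to 92 and 2617 for HU_Flag_RIP. Directions of single members are thus relative to the other genes of the same library.

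HU treatment was compared within the Flag libraries. None of the 10 genes was called by edgeR, against 0.611% of all 10473 genes (0.143% higher, 0.468% lower), and DESeq2 called 0. At an unadjusted p under 0.05 edgeR had 415 of all these genes. Of the 10 members, 1 gene was under that level with either tool. In edgeR it was Ccnb1, at 43.7 and 36.0 CPM in Flag_RIP and 19.3 and 22.7 in HU_Flag_RIP. The HU libraries lay below the untreated ones, and the difference was -0.93 (SE 0.31, edgeR adjusted p = 0.641), with a 95% interval from -1.58 to -0.27. Cdk1 was at 32.7 and 27.1 CPM without HU and at 23.1 and 13.3 with it (-0.71, 95% interval -1.44 to 0.02). Ccna2 differed by 0.08 with an interval from -0.61 to 0.76. For the least counted members the intervals were wide, from -2.65 to 2.26 for Cdkn2a and from -1.08 to 2.73 for Ccnd2, so changes of several fold were not detectable at this depth.

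Of the 59 other cell cycle genes tested, 2 were called with HU, and both were higher, beside 0.143% higher and 0.468% lower over all genes. Ccng1, which encodes cyclin G1 and is a p53 target, was at 19.4 and 15.9 CPM in Flag_RIP and at 83.6 and 65.7 in HU_Flag_RIP (2.08, SE 0.33, edgeR adjusted p = 0.00221), and at 15.9 and 9.48 in IgG_RIP. Cdkn1a, another p53 target, was at 1.85 and 7.75 CPM in Flag_RIP, 27.2 and 18.6 in HU_Flag_RIP (2.28, SE 0.51, edgeR adjusted p = 0.0444) and 9.56 and 7.45 in IgG_RIP. Both HU libraries were above all 4 untreated libraries for both genes. HU_Flag_RIP was also above IgG_RIP for Ccng1 (2.56, SE 0.35, edgeR adjusted p = 0.00064), and below it for the mitotic kinesin Kif11 (-1.55, SE 0.40, edgeR adjusted p = 0.039). HU treatment was not paired with total RNA or with IgG among these libraries, so more of a message in the cells and more of it recovered cannot be told apart.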

How the data were processed

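Total RNA was sequenced from the 4 RNA-seq groups and precipitated RNA from IgG_RIP, Flag_RIP and HU_Flag_RIP, each with 2 libraries grouped by their titles. The authors deposited FPKM per gene with confidence bounds for RNA-seq, per the file headers, and raw counts per symbol for RIP. The build was mm10, and HTSeq 0.6.1, Cuffdiff 2.1.1, TopHat2 2.0.8, Cufflinks 2.1.1 and CASAVA 2.19 are named without a role, per the submitters' processing notes. No source used here states whether libraries kept the strand, and reads of overlapping or antisense genes may be mixed. FPKM were summed over the loci of a symbol; 1 gene marked as failed was left out. From the counts 25 symbols that read as dates were left out (0.0206% to 0.0489% of counts).

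FPKM were tested with limma 3.58.1 (trend) on log2(FPKM + 1), after keeping genes whose mean reached 1 FPKM in at least 1 of both groups, each comparison on its own libraries. Counts were tested with the edgeR 4.0.16 quasi-likelihood test (TMM, filterByExpr, all 6 libraries in 1 fit) in R 4.3.3; the SE is the fold change over the root of F. DESeq2 1.42.0 was an alternative. P-values were adjusted by Benjamini-Hochberg over all genes tested. Effective fragments assume that the bounds lie 2 SD from the value. Both tests were tested on simulated data.

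All 10 members are named in every comparison, and from each cell cycle list at most the 4 called genes with the smallest p, also where fewer are named; Cdkn2d was named as the last of its list's calls. The 3 genes of closest pattern were taken for Ccnd2, Ccne1, Cdk1 and Cdkn2a, leaving out predicted genes, pseudogenes and small RNAs. The members, lists, tests and alternatives were chosen with earlier results of these data known. The CCAAT, CHR and E2F-like motifs were chosen after the values were seen. Alternatives changed the pseudocount, the filter, the scaling, the tool and the libraries, and added a replicate block. Replicate numbers are in the titles, and nothing says that they pair the libraries. Matplotlib 3.10.9 was used for figures.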

Additional observations from a re-analysis of the deposited data

How the results depend on the processing

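Over the 10 genes and 7 comparisons, 823 values were recomputed under alternatives: 760 kept their side of the threshold, 20 lost it, 43 gained it and 0 called values changed sign. The number of members called in the knockdown was 5, and 3 with a mean of at least 5 FPKM, where Ccnd3 and, for its level, Cdkn2a left. Leaving out 1 library gave 3 to 5 members for mESC against MEF, 3 without either MEF library. It gave 3 to 10 for the knockdown, 3 without either KD_control library, 8 without Dppa5a_KD replicate 1 and 10 without replicate 2. For KD_control against mESC it gave 2 to 9, with 2 without either KD_control library, 7 without mESC replicate 1 and 9 without replicate 2. A lone library is then assumed to vary like the other group. Wherever the member count fell or rose in these fits, the calls over all genes moved the same way. These counts therefore do not set the members apart from other genes.

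With library size alone 4 members were called in Flag_RIP and 5 in HU_Flag_RIP against IgG_RIP, all lower. In HU_Flag_RIP against IgG_RIP, DESeq2, no filter on low counts and the replicate block each called 1, Ccnd3. In Flag_RIP against IgG_RIP the replicate block called 1, Ccnd2. Deviations of libraries with the same number correlated by -0.54 for mESC and MEF, 0.0141 for the knockdown and its control, and 0.357 for both Flag groups. With 2 pairs each, these values cannot show whether the numbers pair the libraries.

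Over all genes, the knockdown calls went from 4618 to 2916 with a common sum, 3056 without the 10 most abundant genes, 3023 with the stricter filter, 2992 in 1 fit of all 8 libraries, and 2415 to 9436 without 1 library. For mESC against MEF 7304 became 2835 and 2993 without a MEF library, and for KD_control against mESC 5220 became 1865 to 10895. Flag_RIP calls went from 243 to 30 and 48 without an IgG_RIP library, 433 without the filter and 508 with the block. HU_Flag_RIP calls against IgG_RIP went from 300 to between 23 and 252 without 1 library (186 without HU_Flag_RIP replicate 1), 532 without the filter and 617 with the block, and against Flag_RIP from 64 to 41 in a fit of these groups alone. Median-ratio scaling moved the higher share of calls in mESC against MEF from 54% to 46.2%. The causes were not tested. Few counts limit the RIP values of Ccnd2, Ccne2 and Cdkn2a.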
